A study of Homo sapiens with 8 samples.

Results

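The BCL2 family sets the threshold for mitochondrial apoptosis, and 10 of its genes were followed across serum withdrawal in A375 cells. They are the BH3-only genes *BMF*, *BCL2L11* (BIM), *BBC3* (PUMA), *PMAIP1* (NOXA), *BAD* and *BIK*, the pro-survival genes *BCL2*, *BCL2L1* (BCL-XL) and *MCL1*, and the pore-forming effector *BAX*. They were chosen by name from the 58051 genes counted, each was found in every one of the 8 libraries, and all 10 had enough counts to be tested. Effector proteins such as BAX open the outer mitochondrial membrane and release cytochrome c, which starts the caspase cascade. Pro-survival proteins hold the effectors in check, and BH3-only proteins bind the pro-survival proteins or the effectors and so tip the balance towards death. BH3-only genes are known for responding to withdrawal of growth factors or nutrients, to DNA damage or to loss of anchorage, and much of their control lies in protein modification, which RNA counts do not see.

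A375 is a human melanoma cell line. The submitters derived 4 lines from it by single-cell cloning, labelled WT1 to WT4, so that each line is 1 clone. The study uses WT for wild type at *NECTIN1*. Each line was kept for 12 h in DMEM with 10% fetal bovine serum (FBS) or in DMEM without it, which gave 4 libraries per condition from total RNA depleted of ribosomal RNA. The serum libraries of WT1 to WT4 held 39647157, 67101005, 45095740 and 29759279 counts on genes, and the serum-free libraries 40468165, 73341551, 37847737 and 53371498. The deposited data of WT4 carry another name than its label. *NECTIN1*, the gene in the title of the study, was at 58.1 ± 7.12 CPM (counts scaled to library size) with serum and 46.5 ± 1.85 CPM without (SD, n = 4).

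Markers of the melanocyte lineage were only partly expressed. *MITF* (30.1 to 44.2 CPM over the 8 libraries) and *S100B* (13.6 to 34.9 CPM) had the highest values of the 8 markers, whereas *SOX10* had 0 counts in every library and *TYR* was at or near 0. In the annotation used here *POLR2F*, on the other strand, covers 5.39% of the exon length of *SOX10*. Reads assigned to both genes were not counted, and the annotation release used for counting is not known. Whether an overlap in that release accounts for the 0 was not tested, so the 0 is uncertain. The summed level of the 8 markers ran from 54.8 to 67.8 CPM with serum and from 51.0 to 69.3 CPM without. Of 5 keratinocyte markers, *KRT14* was the most abundant (11.6 to 21.0 CPM) and *KRT1* had 0 counts, with sums of 14.96 to 21.7 CPM with serum and 11.7 to 21.0 CPM without. The 5 fibroblast markers summed to 6.31 to 10.2 CPM with serum and 7.96 to 10.3 CPM without. Among them *PDGFRA* rose without serum (log2 fold change 1.77, edgeR's adjusted p = 0.00767), from 0.709 to 2.39 CPM. The 3 leukocyte and endothelial markers that could be matched summed to at most 1.35 CPM in a library, mostly from *CDH5*.

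Without serum, *BMF* rose several-fold in every line, while *PMAIP1* and *MCL1* fell, the latter slightly. At a threshold of 0.05 these were the 3 of 10 to pass the quasi-likelihood test of edgeR, its p-values adjusted by the Benjamini-Hochberg method over all 17671 tested genes. Across all tested genes 25.1% passed, 11.1% as higher and 14% as lower without serum, so 1 higher and 2 lower among 10 is close to the share over all genes in this fit. The median log2 fold change was -0.07 over the 10 genes and 0.03 over all tested genes. Each line gave a library to both conditions, and with the line as a block 5 of the 10 passed, 2 higher and 3 lower, against 45.7% of all genes (23.2% higher and 22.4% lower). With a correction for GC content added to the block, 1 of the 10 was higher and 5 were lower. Over the 17425 genes of that fit 23.9% were higher and 22.7% lower, so the lower calls were above that share. The median was then -0.16 over the 10 genes and 0.04 over all genes of the fit. RNA was pooled from all cells of a culture, so fewer cells expressing a gene and less of its RNA per cell cannot be told apart.

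**Figure D1:**
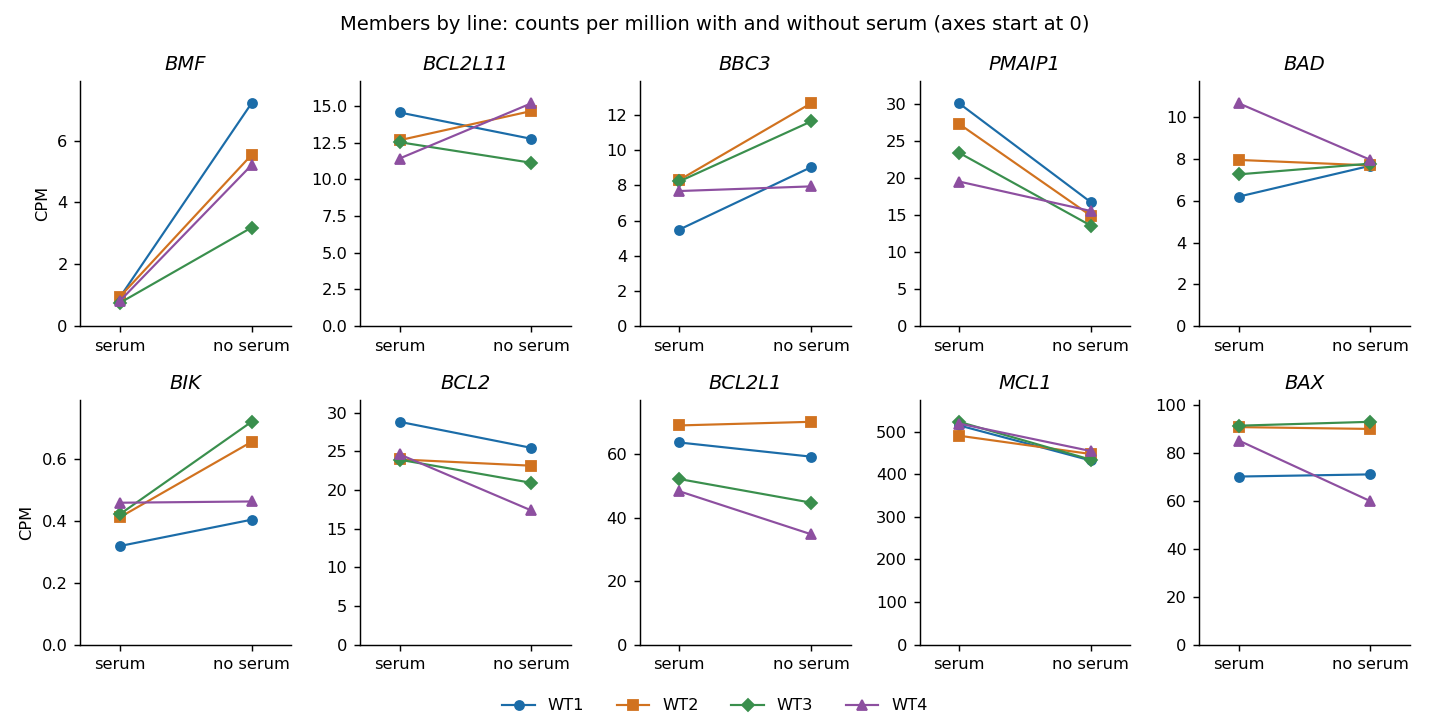
Level of each of the 10 genes in CPM (linear axes from 0), with serum on the left and without serum on the right of each panel. Each line of the plot joins the 2 libraries of 1 A375 line. *BMF* is higher and *PMAIP1* and *MCL1* are lower without serum in all 4 lines, and for *BAX* and *BAD* WT4 is the line with the steepest descent.

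*BMF* encodes a BH3-only protein that is held at the cytoskeleton and binds pro-survival proteins when released. It had 35, 62, 32 and 23 counts in WT1 to WT4 with serum and 304, 423, 124 and 293 without, which came to 0.928, 0.943, 0.748 and 0.810 CPM with serum and 7.21, 5.54, 3.19 and 5.21 CPM without. The groups did not overlap, which held for 12.6% of all genes in this direction, and the serum libraries lay close together while the serum-free ones spread more widely, with WT1 highest and WT3 lowest. The ratio without serum to with serum was 7.77, 5.87, 4.26 and 6.43 in WT1 to WT4. The fitted log2 fold change was 2.62 ± 0.26 (SE; adjusted p = 8.28e-04), or 6.13-fold. By this value *BMF* stood at place 12 from the top among all tested genes. It passed in all 23 alternative fits, among them the 12 made without a library or a line, where the log2 fold change stayed between 2.43 and 2.79. An antisense gene, *BMF-AS1*, shares 8.46% of the exon length of *BMF* and had 0 counts in all libraries.

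*PMAIP1* encodes NOXA, a BH3-only protein that binds mainly MCL1. Its level was 30.1, 27.3, 23.4 and 19.5 CPM in WT1 to WT4 with serum and 16.8, 14.9, 13.6 and 15.6 CPM without. The groups did not overlap (15% of all genes in this direction), and the fall was smallest in WT4, whose serum library was the lowest of its group. The log2 change was -0.84, -0.87 and -0.78 in WT1 to WT3 and -0.33 in WT4. The fitted value was -0.72 ± 0.13 (SE; adjusted p = 0.00520), and the gene passed in all 23 alternative fits, with log2 fold changes from -0.84 to -0.63 in the 12 made without a library or a line. After a correction for GC content together with the line block, under which 46.7% of all genes passed (23.9% higher and 22.7% lower), it was -0.49 (adjusted p = 5.56e-05).

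The RefSeq promoter table (GRCh38.p14) held 11 start sites for 8 of the 10 genes, *BIK* and *MCL1* being the others. In the 250 bases before each start, 5 motifs were searched on both strands: GTAAACA, bound by FOXO factors, CACGTG, the E-box bound by MITF and TFE factors, TGACGT, bound by ATF and CREB factors, TGANTCA, bound by AP-1, and TTTNNCGC, bound by E2F factors. Of 35116 promoters of this length in the table, 2.98% held GTAAACA, 6.34% CACGTG, 7.10% TGACGT, 6.57% TGANTCA and 5.92% TTTNNCGC. The sequences before *BMF*, *PMAIP1* and *BCL2L11* are shown because the first gene rose, the second fell, and the third holds the only match to the FOXO motif among the 11, with matches in capitals. They lie at chr15:40108880-40109129 (minus strand), chr18:59899746-59899995 (plus strand) and chr2:111120664-111120913 (plus strand), 5′ to 3′ along each gene.
BMF: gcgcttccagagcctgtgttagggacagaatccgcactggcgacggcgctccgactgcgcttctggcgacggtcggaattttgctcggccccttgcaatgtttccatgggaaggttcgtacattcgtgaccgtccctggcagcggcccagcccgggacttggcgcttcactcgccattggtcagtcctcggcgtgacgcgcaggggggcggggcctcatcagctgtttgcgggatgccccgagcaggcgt
PMAIP1: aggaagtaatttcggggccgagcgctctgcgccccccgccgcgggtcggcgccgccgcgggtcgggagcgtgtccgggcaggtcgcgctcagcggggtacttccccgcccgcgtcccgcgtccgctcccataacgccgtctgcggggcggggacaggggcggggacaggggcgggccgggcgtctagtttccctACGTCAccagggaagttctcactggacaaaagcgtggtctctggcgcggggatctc
BCL2L11: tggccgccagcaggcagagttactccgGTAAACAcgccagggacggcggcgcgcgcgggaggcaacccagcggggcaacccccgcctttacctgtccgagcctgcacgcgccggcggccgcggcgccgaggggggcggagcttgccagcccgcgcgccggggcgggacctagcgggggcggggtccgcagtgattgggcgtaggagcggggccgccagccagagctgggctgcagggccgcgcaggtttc
Before *BMF* none of the 5 motifs was found at either of its 2 start sites, which says only that these letters are not in the window. The *PMAIP1* promoter held TGACGT on the minus strand, as ACGTCA, beginning 56 bases before the start. The *BCL2L11* promoter held GTAAACA, beginning 223 bases before the start. Among the promoters not shown, *BAX* held CACGTG at 4 places, *BBC3* held CACGTG and TGANTCA, both overlapping start sites of *BAD* held the same TGACGT, 1 of 2 start sites of *BCL2L1* held TTTNNCGC, and *BCL2* held none. A match is a description of the letters, and binding was not measured.

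Of the factors that bind these motifs or are known to act on BH3-only genes, 11 were tested, and 2 rose and 3 fell (45.5%, beside 25.1% of all genes), with a median log2 fold change of -0.11. With the line block 7 of the 11 passed, beside 45.7% of all genes, the further 2 being *FOXO1* and *JUN*. Of the 5 calls without the block, 3 were left under upper-quartile scaling and with no filter on low counts. *FOXO3*, a forkhead factor that AKT keeps out of the nucleus, rose from 28.8 ± 1.79 to 44.9 ± 4.56 CPM (SD, n = 4; log2 fold change 0.64, edgeR's adjusted p = 0.00184). *FOXO4* rose from 9.49 ± 2.46 to 21.3 ± 3.23 CPM (1.17, adjusted p = 0.00285), and *FOXO1* went from 14.99 to 18.3 CPM without passing (0.29, adjusted p = 0.497, and 0.0132 with the line block). *JUN* did not pass either (-0.30, adjusted p = 0.283, and 0.0111 with the block). *ATF4*, a stress-response factor that activates *PMAIP1*, fell from 296 ± 11.5 to 201 ± 3.58 CPM (-0.56, adjusted p = 8.46e-04). The calls of *FOXO3*, *FOXO4* and *ATF4* held in all 12 fits made without a library or a line. *E2F1* (-0.64, adjusted p = 0.0385) and *MITF* (-0.28, adjusted p = 0.0496) also fell but failed in 10 and 9 of those fits, with adjusted p up to 0.127 and 0.204, and both failed under upper-quartile scaling (0.0590 and 0.107) and with no filter on low counts (0.113 and 0.0612). *MITF* also failed with at least 10 counts asked of every library (0.0552). With the line block both passed, also with any 1 line left out (at most 0.00224 and 0.0318), and the GC correction took *MITF* to -0.14 (0.0428). Whether any of these factors acted on the BH3-only genes was not tested.

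*BBC3* encodes PUMA, which binds all pro-survival proteins. It was at 5.49, 8.31, 8.23 and 7.68 CPM in WT1 to WT4 with serum and at 9.03, 12.7, 11.6 and 7.94 CPM without. It was higher without serum in all 4 lines, but hardly in WT4, and the groups overlapped. The log2 fold change of 0.47 ± 0.19 (SE) missed the threshold (adjusted p = 0.0916) and passed with the line block (0.47, adjusted p = 0.00400) or without both libraries of WT4 (0.60, adjusted p = 0.0441). With GC content corrected beside the block it was 0.13 (adjusted p = 0.286). The transcript of *BBC3* has a GC content of 69.7%, the highest of the 10 genes, against a median of 47.9% over tested genes. Across tested genes the log2 fold change was larger at higher GC content (Spearman's rho 0.36 over 17425 genes, which are not independent replicates, and 0.02 after the correction).

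The remaining BH3-only genes showed no change that passed without the block. *BCL2L11* encodes BIM, which binds every pro-survival protein and can activate BAX, and it ranged over 11.4 to 14.5 CPM with serum and 11.1 to 15.2 CPM without. It was higher in WT2 and WT4 and lower in WT1 and WT3 (log2 fold change 0.07 ± 0.13, SE; adjusted p = 0.719), and without WT4 the sign turned (-0.04). *MIR4435-2HG*, on the other strand, shares 10.8% of its exon length and had 779 to 2546 counts, so part of the *BCL2L11* signal is uncertain. *BAD*, whose protein is released by loss of survival-kinase phosphorylation, was at 6.20, 7.96, 7.27 and 10.7 CPM in WT1 to WT4 with serum and at 7.68, 7.70, 7.78 and 7.96 CPM without. The serum-free libraries of *BAD* lay almost on top of each other, and the serum group was set apart by WT4. Its log2 fold change of -0.04 (adjusted p = 0.878) turned positive without the serum library of WT4 (0.12, adjusted p = 0.480), without both WT4 libraries (0.11) and under upper-quartile scaling (0.02), and was -0.31 with the block and the GC correction (adjusted p = 0.0207), at a GC content of 66.3%. *GPR137*, on the other strand, shares 23.7% of its exon length and had 1388 to 4683 counts. *BIK* had only 12 to 50 counts per library (0.318 to 0.458 CPM with serum and 0.403 to 0.719 CPM without). It was higher without serum in 4 of 4 lines, but hardly in WT4, and the groups overlapped. Its log2 fold change of 0.48 ± 0.30 (SE, edgeR's adjusted p = 0.275) did not pass.

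*MCL1*, a short-lived pro-survival protein bound by NOXA, PUMA and BIM, was the most abundant pro-survival transcript. It was at 515, 491, 523 and 519 CPM in WT1 to WT4 with serum and at 432, 448, 434 and 455 CPM without. The groups did not overlap (15% of all genes in this direction), and the 4 lines were close to each other in both conditions. The fall was small, with a log2 fold change of -0.21 ± 0.05 (SE; adjusted p = 0.0187), or -0.25, -0.13, -0.27 and -0.19 line by line. It failed without the serum library of WT3 (0.0580), the serum-free library of WT1 (0.0555) or both libraries of WT1, WT2 or WT3 (0.127, 0.0794 and 0.102), under upper-quartile scaling (0.0640) and with no filter on low counts (0.0688). With the line block it passed (adjusted p = 0.00339), also with any 1 line left out (at most 0.0351).

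*BCL2*, the founding pro-survival gene, was at 28.8, 24.0, 23.9 and 24.6 CPM in WT1 to WT4 with serum and at 25.5, 23.2, 20.9 and 17.4 CPM without. It was lower without serum in all 4 lines, least in WT2 and most in WT4, and the groups overlapped. The log2 fold change of -0.22 ± 0.12 (SE; adjusted p = 0.214) passed with the line block (-0.23, adjusted p = 0.0342) but not when the GC correction was added (-0.18, adjusted p = 0.0684). The blocked call was also lost without WT1 (0.0800), WT3 (0.0857) or WT4 (-0.14, 0.107). *BCL2L1* encodes BCL-XL and was at 63.8, 69.2, 52.3 and 48.4 CPM with serum and at 59.3, 70.3, 44.8 and 34.8 CPM without. It was lower without serum in 3 of 4 lines, again most in WT4. Its log2 fold change was -0.16 (adjusted p = 0.636), -0.19 with the block (adjusted p = 0.0509) and -0.34 with the block and GC correction (adjusted p = 1.19e-04). Without WT4 it was -0.08 (0.772) and with the block -0.10 (0.155), and without the serum-free library of WT4 alone it was -0.01 (0.987). The antisense gene *ABALON* covers 41.3% of its exon length and had at most 142 counts. Reads assigned to both genes were left out, so part of the *BCL2L1* signal is uncertain.

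*BAX*, the effector, was at 70.2, 90.8, 91.4 and 85.2 CPM with serum and at 71.1, 90.0, 93.0 and 59.8 CPM without. In WT1 to WT3 the log2 change was between -0.01 and 0.03, and in WT4 it was -0.51. The fitted value over the 4 lines was -0.10 (adjusted p = 0.641), and without both WT4 libraries it was 0.01 (0.965). With the block and the GC correction it was -0.28 (adjusted p = 7.28e-04). Whether the response of WT4 differed from that of the other lines was not tested. The effectors *BAK1* and *BOK* are described with the rest of the family.

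**Figure D2:**
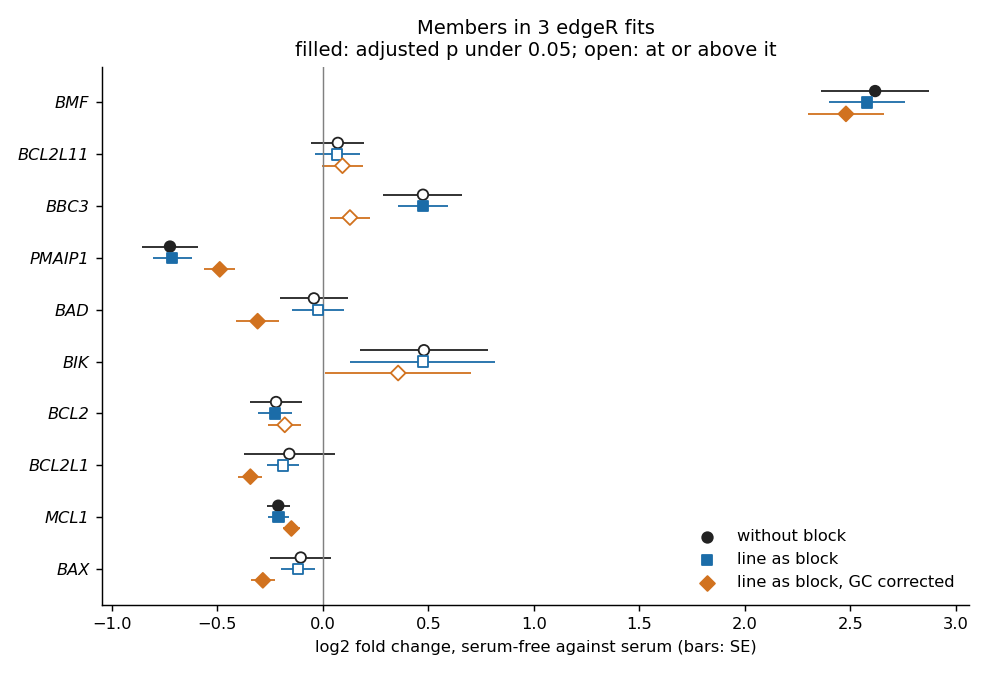
Log2 fold change of each of the 10 genes, serum-free against serum, with its SE, in 3 edgeR fits (black circles without a block, blue squares with the line as a block, orange diamonds with the block and a GC correction). Filled symbols passed at an adjusted p under 0.05. *BMF*, *PMAIP1* and *MCL1* are filled in all 3 fits, *BBC3* and *BCL2* in the blocked fit alone, and *BAD*, *BCL2L1* and *BAX* in the GC-corrected fit alone.

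The 4 clones also differed from each other apart from serum. In edgeR's test of the line terms 22.9% of all tested genes passed, and among the 10 genes *BCL2L1* and *BAX* did. *BCL2L1* averaged 69.7 CPM over both libraries of WT2, 61.6 in WT1, 48.5 in WT3 and 41.6 in WT4, a fitted range of 0.77 on the log2 scale (adjusted p = 3.08e-04), and it passed with any library left out (at most 0.0110). *BAX* averaged 70.6 CPM in WT1, 72.5 in WT4, 90.4 in WT2 and 92.2 in WT3 (range 0.38, adjusted p = 0.0261), and without 1 library its adjusted p rose to as much as 0.187. It failed without the serum library of WT1 (0.110) or WT3 (0.0639) and without the serum-free library of WT1 (0.0633), WT2 (0.155) or WT3 (0.187). *BMF* ran from 1.97 CPM in WT3 to 4.07 in WT1 and did not pass (range 0.88, adjusted p = 0.0892), and *MCL1* was the most even (range 0.05, adjusted p = 0.936). The libraries of WT4 weighed heavily on this test: without its serum library 6 of the 10 genes passed and without its serum-free library 7 did, among them *BMF* (0.0336 and 0.0247), *PMAIP1* (0.0487 and 4.05e-04) and *BBC3* (0.00148 and 0.00497). Over all genes there were also more calls in these fits, 5126 and 7580 against 4055 with every library.

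Levels of different genes were compared per length, as CPM per 1000 bases of merged exon length (RPKM). With serum the order ran from *MCL1* (82.3 ± 2.35 RPKM), *BAX* (32.6 ± 3.82), *BCL2L1* (13.9 ± 2.31), *PMAIP1* (11.5 ± 2.11), *BAD* (4.70 ± 1.12), *BBC3* (2.33 ± 0.42), *BCL2* (2.01 ± 0.19) and *BCL2L11* (1.90 ± 0.19) to *BIK* (0.423 ± 0.06) and *BMF* (0.157 ± 0.02; all SD, n = 4). The ranges of *BCL2L1* and *PMAIP1*, of *BBC3* and *BCL2*, and of *BCL2* and *BCL2L11* overlapped. Library by library, *BCL2L1* was above *PMAIP1* and *BCL2* above *BCL2L11* in 4 of 4, and *BBC3* above *BCL2* in 3 of 4. Without serum *BMF* moved past *BIK*, at 0.970 ± 0.30 against 0.588 ± 0.16 RPKM, above it in 3 of 4 libraries, and it was still below the other 8 genes in the mean. Its share of the summed level of the 6 BH3-only genes followed here went from 0.748% ± 0.04 to 5.27% ± 1.53, while that sum went from 21.0 ± 1.21 to 18.3 ± 0.77 RPKM. *MCL1* made up 83.8% ± 2.36 of the summed level of the 3 pro-survival genes followed here with serum and 83.5% ± 3.97 without. Other family genes are not in these sums. Among them are *BID* (5.01 RPKM with serum and 4.14 without) and *BCL2L2* (6.46 and 6.42 RPKM).

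**Figure D3:**
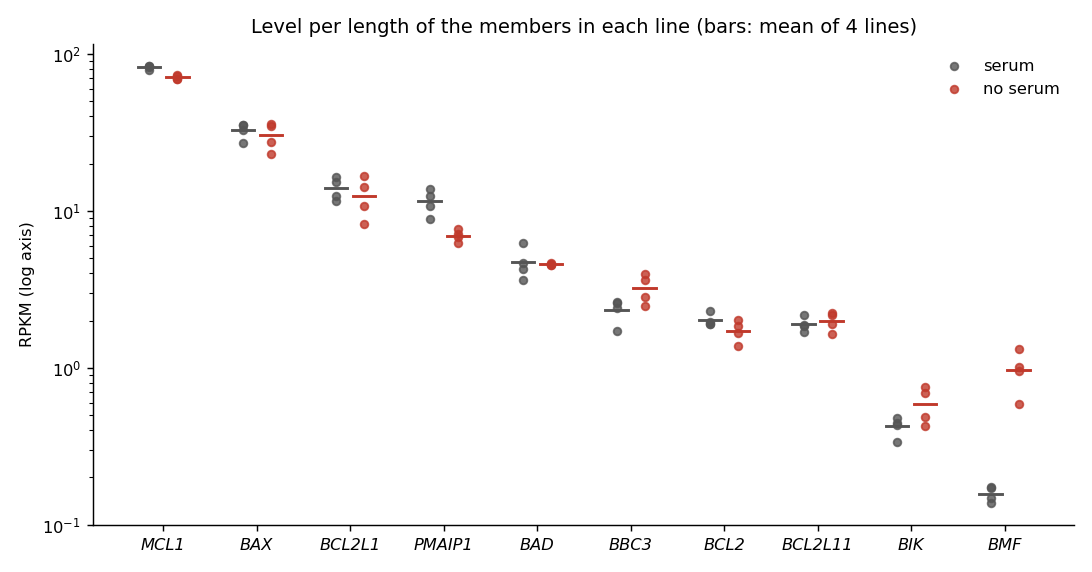
Level of the 10 genes per length in RPKM on a log axis, ordered by the mean with serum. Each point is 1 line, grey with serum and red without, and each bar is the mean of 4 lines. *BMF* is lowest of the 10 with serum (0.157 RPKM) and at 0.970 RPKM without serum, and *MCL1* is highest in both conditions.

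Of 14 other family genes, 12 were tested, and 1 rose and 2 fell, 25% beside 25.1% of all genes, with a median log2 fold change of 0.11. With the line block 5 of the 12 passed, beside 45.7% of all genes. *BAK1*, the other main effector, fell from 28.5 ± 3.49 to 21.3 ± 2.57 CPM (-0.42, edgeR's adjusted p = 0.0241), a call that failed in 7 of the 12 fits without a library or a line, with adjusted p up to 0.0882. *BNIP3* fell (-0.36, adjusted p = 0.0113) and its relative *BNIP3L* rose (0.34, adjusted p = 0.0114). Both act as receptors for the removal of mitochondria and are induced by low oxygen, and they failed in 2 and 3 of those fits, up to 0.0672 and 0.0840. *BAK1*, *BNIP3* and *BNIP3L* passed without any 1 line when the block was kept (at most 0.00849), and the GC correction took *BNIP3L* to 0.56. The BH3-only gene *BID*, which links death receptors to mitochondria, had a log2 fold change of -0.28 (adjusted p = 0.191, and 0.00761 with the block), and *BOK* one of 0.41 (0.203, and 0.0114 with the block). The GC correction took *BOK* to 0.12 (0.401), and without a line the blocked calls passed in 2 of 4 fits for *BOK* (up to 0.0883) and 3 of 4 for *BID* (up to 0.0510). *HRK* (0.84, adjusted p = 0.225), *BCL2L2* (-0.01, 0.963), *BCL2A1* (0.21, 0.884), *BCL2L12* (-0.24, 0.236), *BCL2L13* (0.11, 0.227), *BCL2L15* (0.16, 0.827) and *BECN1* (0.10, 0.281) did not pass in either fit without GC correction, and *BCL2L2* was positive under upper-quartile scaling (0.06). With the block and GC correction *BCL2L12* (-0.35, 9.33e-04), *BCL2L13* (0.12, 0.0396) and *BECN1* (0.15, 0.0137) passed. In the 12 fits without a library or a line *HRK* ran from 0.440 to 1.21 and *BCL2L12* from -0.341 to -0.0834, and neither passed. *HRK*, *BCL2A1* and *BCL2L15* were under 2 CPM in every library, and *BCL2L10* and *BCL2L14* had too few counts to be tested.

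Downstream of the family, 20 of 21 listed genes of the mitochondrial pathway were tested, and 1 rose and 5 fell (30%, beside 25.1% of all genes), with a median of -0.07. With the line block 10 of the 20 passed, beside 45.7% of all genes. *CYCS*, the gene of cytochrome c, was at 269, 233, 228 and 191 CPM in WT1 to WT4 with serum and at 124, 131, 121 and 93.3 CPM without. It was about halved in each line (log2 fold change -0.97 ± 0.13, SE, edgeR's adjusted p = 0.00157). Its groups did not overlap (15% of all genes in this direction). *VDAC2* (-0.43, adjusted p = 0.00449) and *MTCH2* (-0.39, 0.00648), both of the outer mitochondrial membrane, fell, as did the nuclease inhibitor *DFFA* (-0.33, 0.00761) and the inhibitor-of-apoptosis gene *BIRC5* (-0.38, 0.0190), which is also a gene of dividing cells. *CASP9*, the initiator caspase of this pathway, rose from 9.26 ± 1.84 to 14.3 ± 3.40 CPM (0.63, adjusted p = 0.0350). Among the 12 fits without a library or a line, *CYCS* and *VDAC2* passed in all, *MTCH2* and *DFFA* failed only without WT1 (0.0549 and 0.0647), *BIRC5* failed in 5 (up to 0.0901) and *CASP9* in 9 (up to 0.132). These 6 genes passed without any 1 line when the block was kept (at most 0.00447), and the GC correction took *MTCH2* to -0.26.

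Of 12 death receptor genes 10 were tested, and 2 rose (20%, beside 25.1% of all genes), with a median of 0.00. With the line block 5 of the 10 passed, beside 45.7% of all genes. *TRADD*, an adaptor of the TNF receptor, rose from 5.39 ± 0.77 to 10.0 ± 1.75 CPM (0.90, adjusted p = 0.00485), and *CFLAR*, which encodes the caspase-8 inhibitor FLIP, from 14.4 ± 0.57 to 24.1 ± 3.21 CPM (0.74, adjusted p = 0.00192). Both passed in all 12 fits without a library or a line, and *FASLG* and *TNFSF10*, the ligands, had too few counts to be tested. Of 20 genes that act on the proteins of the family, 1 rose and 6 fell (35%, beside 25.1% of all genes), with a median of -0.04, and 10 passed with the line block, beside 45.7% of all genes. *DYNLL1*, a dynein light chain that tethers BIM, fell from 197 ± 6.28 to 163 ± 19.8 CPM (-0.28, adjusted p = 0.0440), and *DYNLL2*, whose protein tethers BMF, had a log2 fold change of -0.04 (0.733). The 14-3-3 genes *YWHAZ* (-0.50, adjusted p = 0.00337) and *YWHAB* (-0.43, 0.00255), whose proteins hold phosphorylated BAD, fell, as did the kinase genes *RPS6KA3* (-0.47, 0.0115) and *MAPK9* (-0.40, 0.0267). *HUWE1* (0.21, 0.0257) and *FBXW7* (-0.30, 0.0126), both of ubiquitin ligases that act on MCL1, moved in opposite directions. *YWHAZ* and *YWHAB* passed in all 12 fits without a library or a line, *RPS6KA3* failed without WT1 (0.0727), *FBXW7* failed in 3 (up to 0.102), *MAPK9* in 7 (up to 0.111), *HUWE1* in 8 (up to 0.164) and *DYNLL1* in 8 (up to 0.204). *HUWE1* failed with no filter on low counts (0.112) and *DYNLL1* under upper-quartile scaling (0.0994). These 7 genes passed without any 1 line when the block was kept (at most 0.0496), and the GC correction took *RPS6KA3* to -0.29. Over the 5 lists together 23 of 73 tested genes passed (31.5%), 7 higher and 16 lower, beside 25.1% of all tested genes.

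**Figure D4:**
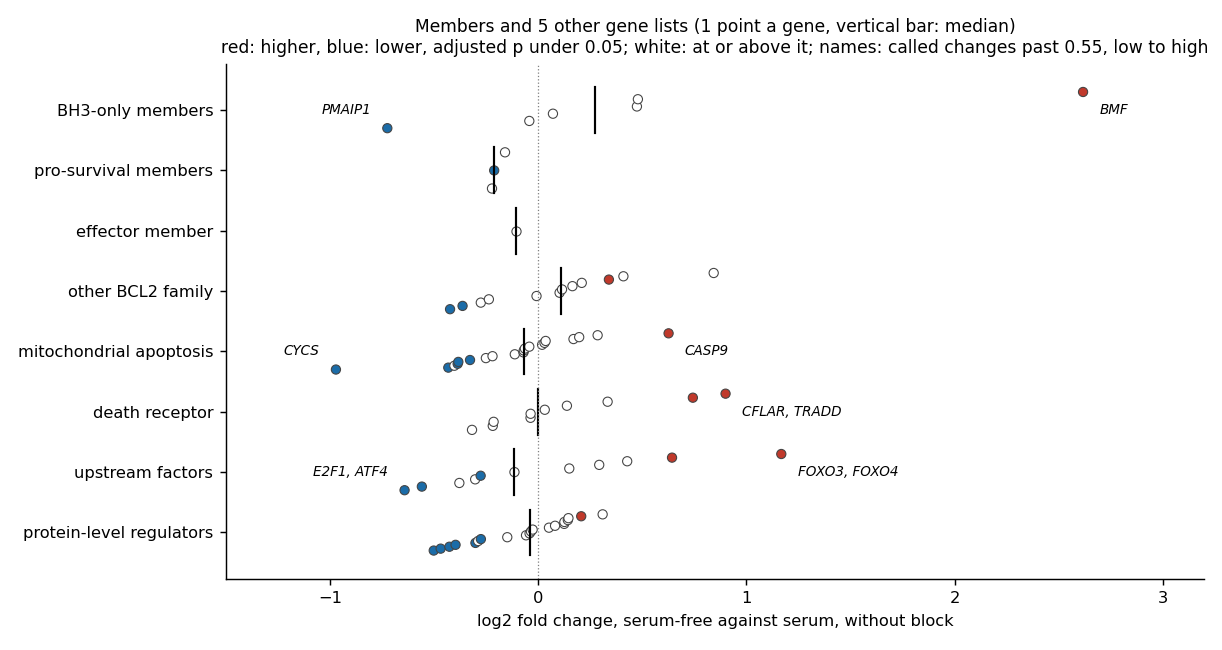
Log2 fold change, serum-free against serum without a block, of every tested gene of the 10 followed here and of 5 other lists, with 1 point per gene and a vertical bar at the median. Red points are higher and blue points lower without serum at an adjusted p under 0.05. *BMF*, at 2.62, lies far to the right of every other point, the next being *FOXO4* at 1.17, and *CYCS* at -0.97 is the lowest.

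The genes whose change was most like that of *BMF* line by line were sought among protein-coding genes whose counts averaged 100 or more, by the root mean square difference of the 4 log2 changes, which for *BMF* were 2.90, 2.50, 2.03 and 2.62 in WT1 to WT4. The nearest was *EPHA7*, an ephrin receptor gene, with changes of 2.43, 2.07, 1.80 and 2.62 and a difference of 0.34. *LOXL4* (0.40), *STRA6* (0.46), *AKAP12* (0.46) and *DEPTOR* (0.47) followed. Their fitted log2 fold changes, 2.24 to 2.40, follow from this choice and are no further result. Their levels with serum ran from 2.68 CPM for *DEPTOR* to 211 CPM for *AKAP12*. Leaving out WT1 kept 2 of these 5 among the nearest 5, leaving out WT4 kept 3, and leaving out WT2 or WT3 kept 4.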

How the data were processed

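RNA of 4 A375 lines was counted with and without serum, 1 library per line and condition, grouped by the submitters' labels. The authors deposited raw counts per gene, whole numbers that were not normalized. The submitters' processing notes name cutadapt, TopHat2 2.0.11, HTSeq and GRCh38, while the study's methods name Tophat, hg19 and Cufflinks. Neither strand setting nor annotation release is given in the sources used here, so overlapping genes are uncertain. In the annotation used here, other genes cover 25.9% of the exon length of *BCL2L12*, 23.3% of *BCL2L2* and 17.1% of *BECN1*. They cover 16.1% of *PDGFRA*, 12.1% of *CFLAR*, 10.2% of *DFFA* and 5.27% of *MCL1*. Reads assigned to several genes were left out by the authors (8.23% to 11.5% of each file's total), as were reads aligned to several places (22.7% in WT1 and 16.8% in WT2 with serum, 5.73% to 10.1% elsewhere), and the entry for reads outside genes is 0 in all files. Depth is given with the samples.

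The test was edgeR 4.0.16's robust glmQLFit and glmQLFTest in R 4.3.3, after filterByExpr and TMM scaling, without a block, with Benjamini-Hochberg adjustment over all tested genes and a threshold of 0.05. CPM uses TMM-scaled library sizes, and line-by-line log2 changes a prior count of 2. Without the block, p-values measure the spread between the 4 clones. With it, they measure how far the change without serum varied between these clones. Nothing states that cultures were separate beyond the 4 clones. Same-line libraries come from the same clone, and their deviations from condition means correlated at 0.403 to 0.604, against at most 0.126 between lines, so the line is a true pairing. Symbols matched 40895 of 58051 identifiers. Gene length and GC content came from GENCODE v44 lifted to GRCh37, another build, and GC content was known for 98.6% of tested genes. Promoters came from RefSeq (GRCh38.p14).

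Alternatives were the line block, the block with a GC correction, DESeq2 1.42.0, RLE and upper-quartile scaling, 2 other count filters, each library and each line left out and, chosen after seeing the data, the block without each line. For levels they were the longest transcript's length and unscaled library sizes. Genes named are the 10 members, every other family gene, in each further list those past the threshold (at most 8, otherwise 4 per direction), the 5 most like *BMF*, and *NECTIN1*. The ligand genes *FASLG* and *TNFSF10* are named besides, as having too few counts to be tested. *PDGFRA*, *FOXO1*, *JUN*, *DYNLL2* and the genes at extremes of the marker lists were named after their values were seen, and *PECAM1* is not analysed here. Of the lists fixed beforehand, 2 other genes are not reported here and were left out of every list count. The members and lists were chosen with earlier results of these data known. Tests were checked on simulated data with a log2 fold change of 1 in 193 of 17390 genes, where 58.55% were recovered without the block (0 false calls) and 80.3% with it (9.88% of calls false).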

Additional observations from a re-analysis of the deposited data

Results flagged for a closer look

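Single libraries far from the other 3 of their condition were sought in 98 groups of 4 libraries, those of 49 named genes in both conditions, by the gap to the nearest library relative to the range. This was met in 9 groups, and chance alone gives about 1 in 20, or 4.9 groups. *BCL2* stood out with serum in WT1 (28.8 CPM against 23.9 to 24.6 in the others). *BOK* was low with serum in WT1 (4.03 against 6.08 to 6.38 CPM). *BCL2A1* was low without serum in WT2 (0.0131 against 0.688 to 0.782 CPM), and *BCL2L10* had counts with serum in WT2 alone (0.0457 CPM, 3 counts), where the 0 counts of the others make the measure 1 by construction and the chance rate does not hold. *CASP9* was high without serum in WT4 (19.4 against 12.4 to 12.7 CPM). *E2F1* was low without serum in WT3 (40.9 against 62.3 to 64.9 CPM), and *HUWE1* in WT2 (814 against 853 to 859 CPM). *STRA6* was high in WT4 both with serum (34.5 against 7.69 to 8.34 CPM) and without (132 against 42.4 to 53.8 CPM).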

How the results depend on the processing

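Among the 10 genes, *BMF* and *PMAIP1* kept their direction and passed in all 23 alternatives. The higher calls, 1 in all, became 2 with the line block and without both WT4 libraries, and ranged from 1 to 2 with libraries or lines left out. The lower calls, 2 in all, became 5 with the block and GC correction, beside 22.7% of all genes called lower in that fit. They became 1 under upper-quartile scaling and 1 with no filter. The lower calls ranged from 1 to 2 with libraries or lines left out and from 2 to 4 when the block was kept, 4 without WT2. Over all genes the 4434 calls became 8067 with the replicate block, 8130 with the GC correction added and 5328 with DESeq2, and ranged from 1589 (without WT1) to 6128 with a library or a line left out and from 6185 to 8938 (without WT4) with the block. With fewer libraries in a fit fewer calls are expected from its size alone, but those without both WT4 libraries (5631) or its serum library had more. Upper-quartile scaling gave 2508 higher and 1843 lower calls against 1957 and 2477. With the block, with the GC correction and as a range without a library or a line, the calls were 5, 7 and 0 to 3 for the other family genes (3 to 6 with the block), 10, 9 and 2 to 9 for the mitochondrial list (8 to 13), 5, 4 and 2 to 4 for the death receptor list (4 to 7), 10, 12 and 2 to 9 for the protein-level list (7 to 12) and 7, 8 and 3 to 5 for the upstream factors (5 to 8, and 3 under upper-quartile scaling and with no filter). The line test called 4 of the 10 genes with no filter and 1 to 7 with a library left out, and 2364 to 7580 of all genes. Log2 values that changed sign, none past the threshold, are given with the lowest and highest of the fits without a library or a line. *BCL2L11* ran from -0.0408 (without WT4, -0.0376 with the block) to 0.161. *BAD* was 0.0211 under upper-quartile scaling and ran from -0.149 to 0.121 (without the serum library of WT4), with 0.110 in the block without WT4. *BAX* ran from -0.203 to 0.0103 (without WT4, 0.0108 with the block). *BCL2L2* was 0.0577 under upper-quartile scaling and 0.00698 with at least 10 counts in every library, and ran from -0.108 to 0.0487, with 0.0419 and 0.0347 in the block without WT1 and without WT3. *BCL2A1* was -0.0586 with the block and ran from -0.143 to 0.648, with -0.568, -0.136 and -0.119 in the block without WT1, WT3 and WT4. *BCL2L15* ran from -0.253 to 0.458, with -0.208 and -0.0289 in the block without WT2 and without WT4. The nearest 5 to *BMF* shared 2 to 4 genes with the full set. *MCL1*'s share of the summed RPKM of *BCL2*, *BCL2L1* and *MCL1* stayed between 81.9% and 84.8%. The block changed the calls of *BBC3*, *BCL2*, *BOK* and *BID* and of no other named family gene. Of 964 alternatives over 42 genes, 34 turned the sign. The cause of these shifts was not tested. *BIK*, *HRK*, *BCL2A1* and *BCL2L15* had low counts, and the part this played was not tested either.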
